A study of Arabidopsis thaliana with 12 samples.

Results

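Late embryogenesis abundant (LEA) genes other than dehydrins were followed in scion and rootstock of Arabidopsis thaliana homografts. The set held 10 genes of the 22746 probe sets tested on the array, each read by a single probe set that was chosen by its identifier. These were LEA7 (AT1G52690), LEA4-1 (AT1G32560), LEA4-2 (AT2G35300), LEA4-5 (AT5G06760), AT3G15670, AT3G17520, AT3G02480, M10 (AT2G41280), SAG21 (AT4G02380) and LEA14 (AT1G01470). The platform annotation named 7 of them, and for LEA7, SAG21 and LEA14 the only source of the name was the study's own tables.

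LEA proteins accumulate in maturing seeds as these dry out, and many also appear in vegetative tissue under water deficit, cold or salt. Most are highly hydrophilic and largely unfolded in water, and they help to keep proteins and membranes intact while cells lose water. Abscisic acid (ABA), the hormone of seed maturation and drought, induces many of their genes.

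All plants were of the Col-0 ecotype and were grown in long days. The cut top of the primary inflorescence stem was wedge-grafted back as scion onto the stem of the same plant, which served as rootstock, so that scion and rootstock did not differ in genotype. Side branches of either graft side supplied young closed flower buds and leaves in a joint harvest, and each organ of each graft side gave 3 arrays, 12 in all. The methods speak of 3 independent biological replicates, from the plants whose scions grew best, and no array came from an ungrafted plant, so the graft and the position on the stem cannot be told apart. Values are log2 signals whose median in every probe set is 0 across all 12 arrays, and they give differences between arrays but no expression level.

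The labelled organs were checked with marker genes. The 5 flower markers measured, SEP1 and AP1 among them and 4 named only by tables of the study, were higher in flower buds than in leaves in both scion and rootstock, and all 5 passed the test. The 3 photosynthesis genes measured, RCA, LHCB4.1 and LHCB4.2, were lower in flower buds, where 2 passed in rootstock and none in scion. Those that did not pass fell short of a 2-fold change only, which the test also required. In scion the log2 differences were -0.90, -0.77 and -0.87 (limma adjusted p = 0.00122, 0.00152 and 0.00694). LHCB4.1 in rootstock gave -0.74 (limma adjusted p = 0.00121). Scion flower bud replicate 1 stood apart from the other scion flower buds. The median log2 value of the 50 probe sets with the largest excess in rootstock leaves was -0.28 on this array, against -2.21 and -2.12 in scion flower bud replicates 2 and 3 and -2.66 to -2.56 in the rootstock flower buds. The opposite set of 50 probe sets with the largest excess in rootstock flower buds had medians of -2.74, -4.01 and -2.11 in scion leaf replicates 1, 2 and 3, against -4.32 to -4.16 in the rootstock leaves. Both sets were chosen on the rootstock arrays alone, whose medians are therefore extreme by that choice. The scion arrays took no part in it and can be compared with each other. The effect of leaving out scion flower bud replicate 1 or scion leaf replicate 3 is given beside the results.

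In flower buds all 10 genes had a higher mean in scion than in rootstock, and 9 of them differed by at least 2-fold. Past 2-fold higher in scion were 2.83% of all probe sets. LEA7, a hydrophilic protein that folds into helices on drying, rose 13.6-fold, and M10, a gene known from late seed development, rose 4.01-fold. These were the 2 genes called, that is, past a Benjamini-Hochberg adjusted p of 0.05 in limma and a fold change of 2. Called higher in the same comparison were 0.237% of all probe sets. The median difference of the 10 genes was 2.31 on the log2 scale, against -0.04 over all probe sets, of which 44% were higher in scion. The 10 genes had been chosen with earlier results of these arrays known, and 6 of them stood in tables of the study. Shares and medians over all probe sets, here and below, are therefore set beside the 10 genes as a description.

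LEA7 had log2 values of 4.44, 2.47 and 3.11 in scion flower buds and of -0.29, 0.06 and -1.05 in rootstock flower buds. Every scion array lay above every rootstock array. The log2 difference was 3.76 ± 0.57 (SE, n = 3 per group; limma adjusted p = 0.0298).

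M10 had log2 values of 2.45, 0.71 and 1.89 in scion flower buds and of -0.24, -0.22 and -0.49 in rootstock flower buds. The groups did not overlap, and scion replicate 2 lay nearest to the rootstock. The log2 difference was 2.00 ± 0.36 (SE, n = 3 per group; limma adjusted p = 0.0481), just inside the threshold.

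AT3G02480, annotated as a LEA family protein, had the largest log2 difference among the 10 genes but fell short of the threshold. Its values were 4.84, 2.41 and 3.39 in scion flower buds and -0.64, -0.46 and -0.94 in rootstock flower buds, with no overlap. The log2 difference was 4.22 ± 0.85 (SE, n = 3 per group), which is 18.7-fold, with a limma adjusted p of 0.066.

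The 3 LEA4 genes belong to a small family whose members are needed for full tolerance of water deficit in Arabidopsis, and they behaved unequally. LEA4-5 had log2 values of 3.78, 0.06 and 0.94 in scion flower buds and of -1.73, -1.42 and -1.86 in rootstock flower buds, a difference of 3.26 ± 0.83 (SE, n = 3 per group; limma adjusted p = 0.135). LEA4-2 had values of 4.68, 1.17 and 2.05 against 0.06, 0.02 and -0.02, a log2 difference of 2.61 ± 0.75 (SE, n = 3 per group; limma adjusted p = 0.186). Both were separated from the rootstock on every array, and in both scion replicate 1 lay far above the other scion arrays. LEA4-1 had values of 0.67, -0.33 and -0.40 against -0.17, -0.11 and -0.36, so the groups overlapped. Its log2 difference was 0.19 (95% interval -1.33 to 1.71; limma adjusted p = 0.971).

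AT3G17520 and AT3G15670 are LEA family members without a gene name. AT3G17520 had log2 values of 2.10, -0.08 and 0.95 in scion flower buds and of -0.66, -0.72 and -0.53 in rootstock flower buds, a difference of 1.63 ± 0.45 (SE, n = 3 per group; limma adjusted p = 0.162). AT3G15670 had values of 2.46, 0.06 and 1.52 against 0.03, 0.30 and -0.03, a log2 difference of 1.25 ± 0.45 (SE, n = 3 per group; limma adjusted p = 0.304). Only AT3G17520 was free of overlap, since scion replicate 2 of AT3G15670 lay among the rootstock arrays.

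SAG21 and LEA14 are atypical LEA genes. SAG21 codes for a mitochondrial protein and is induced in senescence and by oxidative stress, and LEA14 codes for a folded, less hydrophilic protein. SAG21 had log2 values of 1.16, -2.86 and -1.26 in scion flower buds and of -3.37, -3.48 and -4.27 in rootstock flower buds, a difference of 2.72 ± 0.97 (SE, n = 3 per group; limma adjusted p = 0.3). LEA14 had values of 0.09, -2.08 and -1.59 against -2.88, -2.83 and -3.36, a log2 difference of 1.83 ± 0.77 (SE, n = 3 per group; limma adjusted p = 0.404). The groups did not overlap in either gene, although neither passed the test.

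Scion and rootstock flower buds did not overlap in 8 of the 10 genes, with scion higher, and the same held for 11.1% of all probe sets. The SD among the scion flower buds ran from 0.60 in LEA4-1 to 2.02 in SAG21, and among the rootstock flower buds from 0.04 in LEA4-2 to 0.57 in LEA7. In each of the 10 genes it was the larger in scion, whereas the fit gives each probe set a single spread over the 4 groups. In whole organs, a larger number of cells that express a gene and more of its RNA per cell cannot be told apart.

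**Figure D1:**
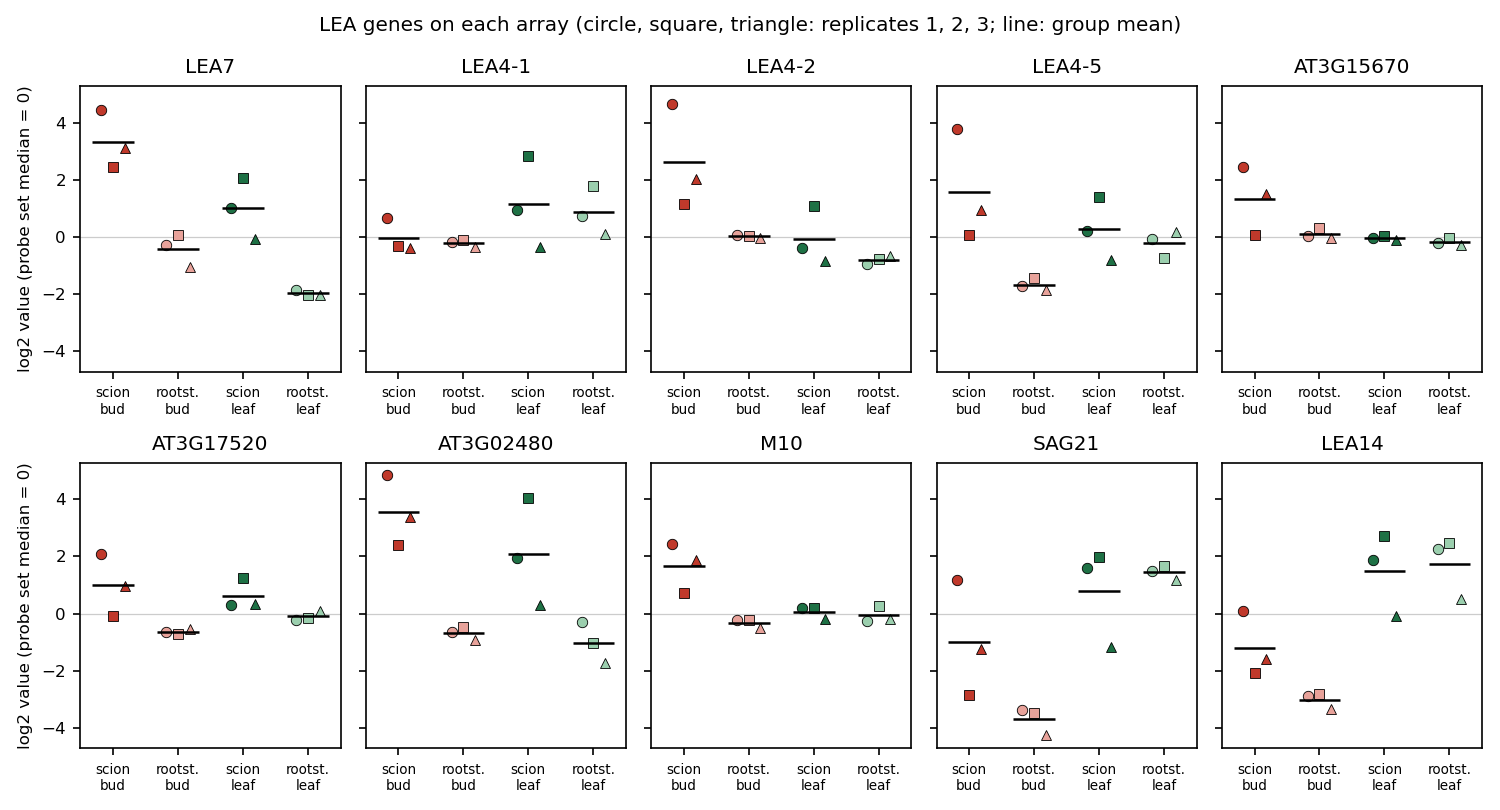
Log2 value of each LEA gene (y axis, with the median of the probe set over the 12 arrays at 0) on every array of the 4 groups (x axis), with circles, squares and triangles for replicates 1, 2 and 3 and a line at the group mean. Scion flower bud replicate 1 is the highest scion flower bud in all 10 panels, and scion leaf replicate 2 the highest scion leaf.

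Replicate 1 of the scion weighed heavily in the flower bud difference. It was the highest of the scion flower buds in 10 of 10 genes, as it was in 29.9% of all probe sets. Replicate 2 was the lowest in 9 of 10, and in 30.6% of all probe sets. In 7 genes, all but LEA4-1, SAG21 and LEA14, replicate 1 lay above all 6 leaf arrays too. It was then the highest of all 12 arrays, as in 4.71% of all probe sets. With replicate 1 left out, 9 genes remained higher in scion and 8 remained past 2-fold, and the median log2 difference was 1.60. None was then called. LEA7 gave 3.22 ± 0.53 (SE; limma adjusted p = 0.103) and M10 gave 1.62 ± 0.32 (limma adjusted p = 0.152) on the log2 scale, while AT3G02480 gave 3.58 ± 0.88 (limma adjusted p = 0.282). The log2 differences of LEA4-5, LEA4-2 and SAG21 were then 2.17, 1.59 and 1.65, and those of LEA14, AT3G17520, AT3G15670 and LEA4-1 were 1.19, 1.07, 0.69 and -0.15. In 8 genes both other scion arrays lay above all rootstock flower buds, against 13.9% of all probe sets.

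The calls also moved with arrays of other groups. With each of the 12 arrays left out in turn, LEA7 was called in 5 fits (limma adjusted p from 0.015 to 0.126) and M10 in 2 (0.00234 to 0.201). AT3G02480 was called in 3 of these fits. The log2 difference of LEA7 stayed between 3.22 and 4.20 and that of AT3G02480 between 3.58 and 4.79. Without scion flower bud replicate 2, the lowest array in most of the genes, 6 genes were called and the median log2 difference was 2.92. The calls over all probe sets also moved widely among these fits, as given in the closing section. The count of 6 is therefore not a result about these genes alone.

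**Figure D2:**
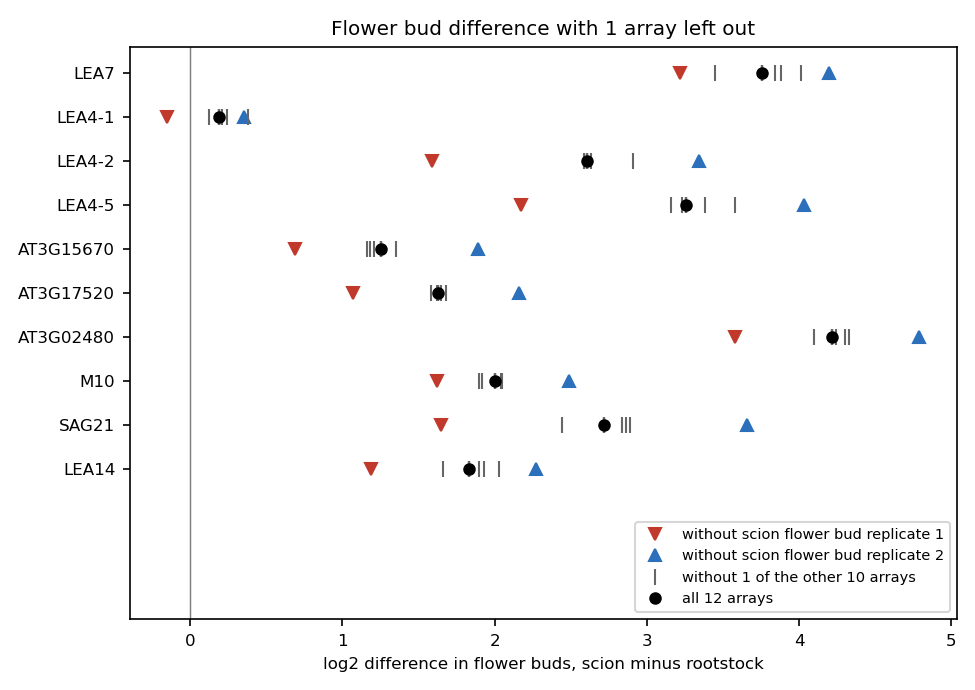
Log2 difference between scion and rootstock flower buds (x axis) of each LEA gene (y axis) in the fit to all 12 arrays (black circles), without scion flower bud replicate 1 or 2 (triangles) and without each of the other 10 arrays (ticks). LEA7 and AT3G02480 stay above 3 in every fit, and LEA4-1 changes sign without replicate 1.

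Scion flower bud replicate 1 was also set against the rootstock leaves, gene by gene. On the linear scale the signal of SAG21 in this array was 81% of the mean of the rootstock leaves, against 4.99% and 15.1% in replicates 2 and 3 and 1.87% to 3.49% in the rootstock flower buds. LEA14 reached 27.3% in replicate 1, 6.06% in replicate 2 and 8.49% in replicate 3, against 2.49% to 3.59% in the rootstock flower buds. For the 50 leaf probe sets the share was computed otherwise, with the mean of the rootstock flower buds subtracted from the signal and from the leaf mean. Its median was 6.04%, 0.278% and 0.318% in these scion arrays. These shares are therefore not on the scale of the percentages of single genes, from which nothing was subtracted. LEA7 stood in the scion flower buds at 8473%, 2165% and 3378% of its mean in rootstock leaves, and at 189% to 407% in the rootstock flower buds. The part of leaf signal in the scion excess of these genes was not tested.

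In leaves 8 of the 10 genes had a higher mean in scion and 2 a lower one, and none was called. Across all probe sets 0.0264% were called higher. At an unadjusted p of 0.05 in the same limma fit 2 genes passed, LEA7 and AT3G02480, against 7.15% of all probe sets in either direction. The median log2 difference of the 10 genes was 0.37, against -0.01 over all probe sets.

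LEA7 had log2 values of 1.01, 2.06 and -0.06 in scion leaves and of -1.85, -2.03 and -2.03 in rootstock leaves. The scion leaves all lay above the tightly grouped rootstock leaves. The log2 difference was 2.98 ± 0.57 (SE, n = 3 per group), which is 7.87-fold, with a limma adjusted p of 0.124. With the replicate number as a block within each organ, LEA7 passed the threshold (2.98 ± 0.48, limma adjusted p = 0.0475).

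AT3G02480 had log2 values of 1.93, 4.06 and 0.30 in scion leaves and of -0.30, -1.03 and -1.74 in rootstock leaves, without overlap. The log2 difference was 3.12 ± 0.85 (SE, n = 3 per group), or 8.7-fold, with a limma adjusted p of 0.325. It lay at 0.0832 with the block. With all arrays LEA7 and AT3G02480 were the only genes of the 10 past 2-fold in leaves, against 1.24% of all probe sets with scion higher. Both were also past 2-fold in flower buds. Without scion leaf replicate 3, 5 genes were past 2-fold, as LEA4-2 (1.13), LEA4-1 (1.01) and LEA4-5 (1.01) joined them on the log2 scale.

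The other genes differed less between the leaf groups. AT3G17520 had log2 values of 0.29, 1.24 and 0.35 in scion leaves and of -0.23, -0.14 and 0.08 in rootstock leaves, a difference of 0.72 ± 0.45 (SE, n = 3 per group; limma adjusted p = 0.864). With LEA7 and AT3G02480 it made up the 3 genes whose leaf groups did not overlap, scion being higher, as in 4.01% of all probe sets. LEA4-2 (-0.40, 1.08 and -0.85 in scion, -0.93, -0.78 and -0.68 in rootstock) and LEA4-5 (0.20, 1.42 and -0.82 against -0.06, -0.72 and 0.17) overlapped, with log2 differences of 0.74 and 0.47. LEA4-1 spread widely in both groups, with 0.96, 2.83 and -0.34 in scion leaves and 0.74, 1.80 and 0.11 in rootstock leaves.

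AT3G15670 and M10 hardly varied among the leaf arrays. AT3G15670 lay between -0.12 and 0.02 in scion leaves and between -0.27 and -0.04 in rootstock leaves, and M10 lay between -0.18 and 0.19 and between -0.26 and 0.27. The log2 difference of M10 was 0.13 (95% interval -0.66 to 0.92). SAG21 and LEA14 had the negative differences. SAG21 measured 1.59, 1.97 and -1.16 in scion leaves and 1.49, 1.68 and 1.19 in rootstock leaves, a log2 difference of -0.65 (95% interval -2.80 to 1.49). LEA14 measured 1.88, 2.71 and -0.09 against 2.26, 2.46 and 0.52, a log2 difference of -0.24 (95% interval -1.95 to 1.46).

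Scion leaf replicate 2 was the highest of the scion leaves in 10 of 10 genes, and in 40% of all probe sets. Replicate 3 was the lowest in 9 of 10, and in 30.8% of all probe sets. Without replicate 2 the median log2 difference of the 10 genes in leaves was 0.09, and without replicate 3 it was 0.94. LEA7 stayed between 2.45 and 3.51 and AT3G02480 between 2.14 and 4.02 with any 1 of the 12 arrays left out. Replicate 3, the lowest in most of these genes, had the highest median of the flower bud probe sets among the scion leaves. The flower markers SEP1, SEP2 and AP1 also rose in scion leaves, by 3.87, 1.81 and 1.22 on the log2 scale (limma adjusted p = 0.00485, 0.00524 and 0.0441). SEP3 (1.81, limma adjusted p = 0.391) and SPL (0.30, limma adjusted p = 0.926) did not pass. Of these markers SPL alone took its name from the annotation. The study's tables supplied the other names and list genes selected on these same arrays. The direction of those markers is therefore no independent evidence. The part of flower signal in the LEA values of scion leaves was not tested.

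**Figure D3:**
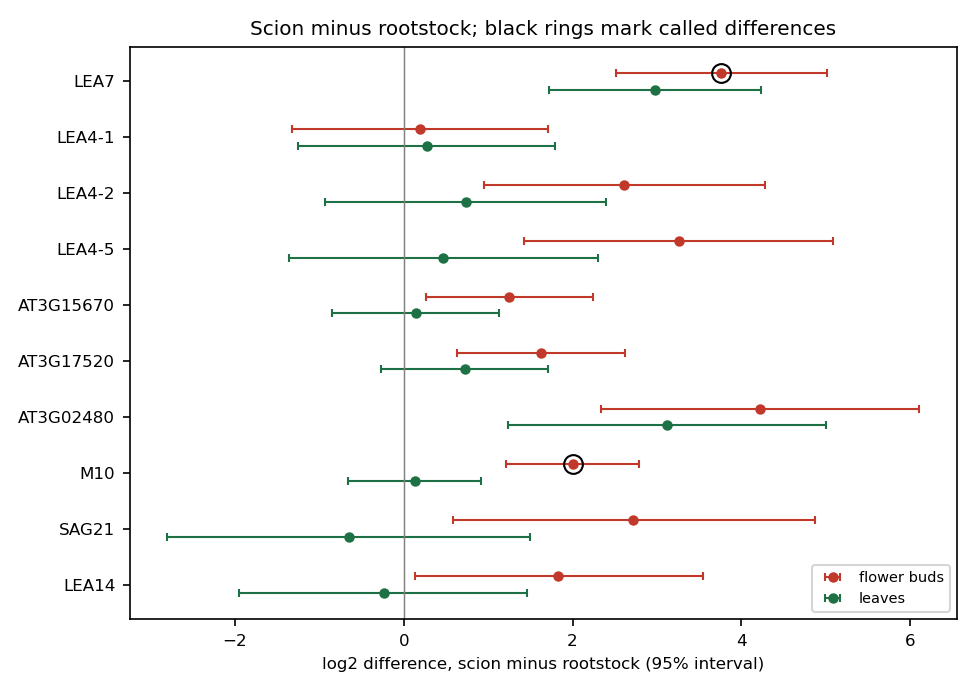
Log2 difference between scion and rootstock (x axis, with 95% intervals from limma, n = 3 arrays per group) in flower buds (red) and leaves (green) for each LEA gene (y axis), with black rings on called differences. LEA7 and AT3G02480 lie near 3 or above in both organs, and the other 8 genes lie below 1 in leaves.

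Whether the scion difference was larger in flower buds than in leaves was tested as a difference of differences. It was positive in 9 of the 10 genes with a median of 1.49 on the log2 scale, against -0.01 over all probe sets, and no gene was called at a limma adjusted p of 0.05. Without scion flower bud replicate 1 the median was 0.70, and the genes past 2-fold went from 7 to 4. In the fit to all arrays, 0% of the 22746 probe sets were called. At an unadjusted p of 0.05, 3 genes passed, M10, LEA4-5 and SAG21, against 7.74% of all probe sets. M10 gave 1.88 ± 0.51 (limma adjusted p = 0.323), LEA4-5 gave 2.79 ± 1.17 (0.586) and SAG21 gave 3.37 ± 1.37 (0.566). LEA7 gave 0.79 (95% interval -0.99 to 2.56) and AT3G02480 gave 1.10 (95% interval -1.56 to 3.76), intervals that include 0 as well as differences of over 4-fold in favour of the buds. The LEA genes called in flower buds and not in leaves were therefore not shown to differ between the organs.

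The organs themselves separated SAG21 and LEA14 from the rest. In the rootstock SAG21 was 35.8-fold and LEA14 27.2-fold lower in flower buds than in leaves, and both were called (log2 differences -5.16 ± 0.97 and -4.77 ± 0.77, limma adjusted p = 0.00162 and 0.000639). LEA7 was the single gene called higher in rootstock flower buds, by 1.54 ± 0.57 on the log2 scale (limma adjusted p = 0.0486). That call was made in 5 of the 12 fits with 1 array left out (limma adjusted p up to 0.152), and it was lost with array medians set to 0 (0.0502) and with a robust prior (0.0511). SAG21 and LEA14 were called in all 12. Called higher in this comparison were 13.7% and called lower 12% of all probe sets. In LEA4-1, LEA4-5 and AT3G17520 the rootstock flower buds also lay below the rootstock leaves on every array, but with log2 differences of -1.10, -1.47 and -0.54 they did not pass the test. In LEA4-2 and AT3G15670 the rootstock flower buds lay above the rootstock leaves on every array, with log2 differences of 0.82 and 0.28 that did not pass either. With the called genes, 3 of the 10 were thus free of overlap with buds higher and 5 with buds lower, against 27.8% of all probe sets in each direction. M10 and AT3G02480 overlapped, with -0.26 and 0.34.

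In the scion 4 genes were called higher in flower buds than in leaves and 1 lower, against 10.5% and 7.91% of all probe sets. The genes higher in buds were LEA4-2 (log2 difference 2.69 ± 0.75, limma adjusted p = 0.0196), LEA7 (2.33 ± 0.57, 0.0101), M10 (1.62 ± 0.36, 0.00622) and AT3G15670 (1.39 ± 0.45, 0.0362). All 4 were separated on every array, as were 24.3% of all probe sets with flower buds higher. LEA14 was lower in scion flower buds by a log2 difference of -2.69 ± 0.77 (limma adjusted p = 0.0219), although scion flower bud replicate 1 lay above the lowest scion leaf. SAG21, at -1.79 ± 0.97 (limma adjusted p = 0.183), did not pass. LEA7 and M10 were called with any 1 array left out, LEA4-2 in 10 of the 12 fits, LEA14 in 8 and AT3G15670 in 3. Without scion flower bud replicate 1, the median of the 10 genes went from 1.36 to 0.51.

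**Figure D4:**
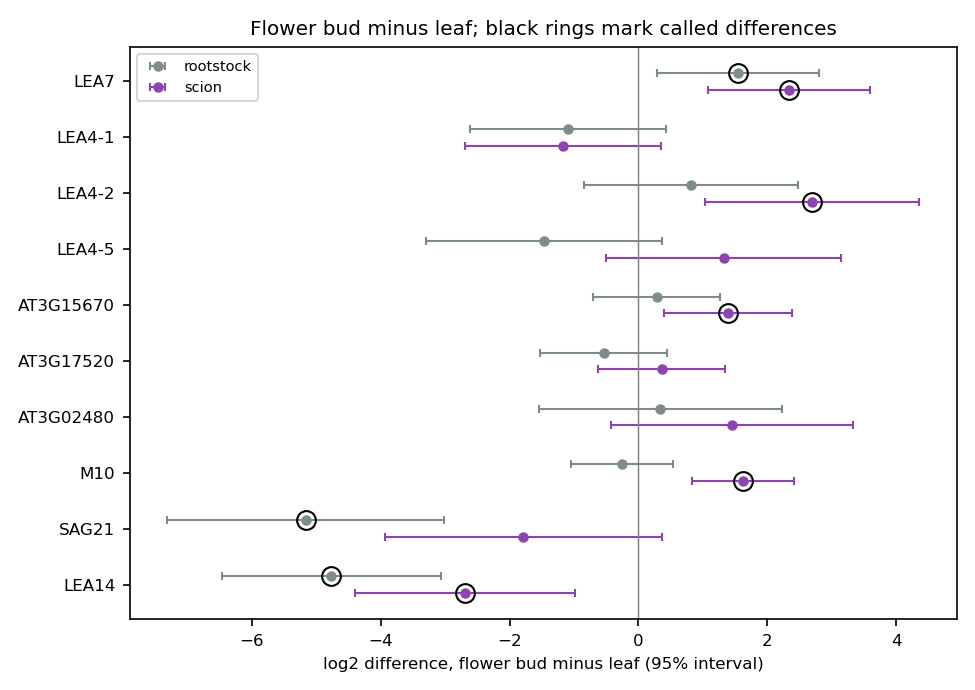
Log2 difference between flower buds and leaves (x axis, with 95% intervals from limma, n = 3 arrays per group) in rootstock (grey) and scion (purple) for each LEA gene (y axis), with black rings on called differences. SAG21 and LEA14 lie far below 0 in rootstock, and the scion value lies above the rootstock value in every gene except LEA4-1.

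Ordered by group means, 7 genes were highest in scion flower buds and lowest in either rootstock group. LEA7 fell from scion flower buds (mean 3.34, SD 1.00, n = 3) through scion leaves (1.01) and rootstock flower buds (-0.43) to rootstock leaves (-1.97), and only its scion leaves and rootstock flower buds overlapped among neighbours in that order. AT3G02480 followed the same order with 3.54, 2.10, -0.68 and -1.02, and here scion flower buds and scion leaves overlapped, as did both rootstock groups. M10 had a mean of 1.68 in scion flower buds and of -0.32 to 0.06 in the other 3 groups. SAG21 and LEA14 ran from rootstock leaves through scion leaves and scion flower buds to rootstock flower buds. Their leaf groups overlapped, and only the rootstock flower buds lay apart from all other arrays. LEA4-1 was highest in scion leaves, where its SD of 1.60 exceeded the distance to every other group.

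The same groupings appeared in the correlations of the 10 genes across the 12 arrays, which are given as a description, since arrays of a group share their organ and graft side. LEA7 and AT3G02480 had a Pearson r of 0.94, LEA4-2 and AT3G15670 of 0.92, AT3G15670 and M10 of 0.93, and LEA4-5 and AT3G17520 of 0.94. SAG21 and LEA14 were correlated at 0.96 with each other but at 0.00 and -0.13 with LEA7. Across the 6 flower bud arrays alone SAG21 and LEA14 reached 0.92 and 0.95 with LEA7, and across the 6 leaf arrays 0.04 and 0.20.

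The named gene closest to each member was sought among 13910 named probe sets. LEA7 was closest to HB21, a homeobox transcription factor gene (r = 0.983 over 12 arrays), and M10 to CEP1, which codes for a cysteine protease of dying tissue such as the tapetum (r = 0.971). LEA4-5 was closest to TMAC2 (r = 0.956), known as a negative regulator of ABA response. For LEA14 it was AT3G07700 (r = 0.995), for SAG21 AT3G14560 (r = 0.984) and for LEA4-2 AT5G66780 (r = 0.976). The gene closest to AT3G02480 was AT5G53710 (r = 0.962) and that closest to AT3G17520 was AT3G02390 (r = 0.974). AT3G15670 was closest to AT4G35690 (r = 0.968) and LEA4-1 to AT1G63010 (r = 0.961). HB21, CEP1, TMAC2 and AT3G07700 owed their names to the study's gene lists, and the annotation gave the other closest genes theirs. Those lists hold genes selected on the same arrays, so the search was not blind to the graft side for these partners. Their closeness is therefore a description and no independent evidence of a shared function.

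The further listed LEA genes with a named probe set, dehydrins aside, gave no call between scion and rootstock. Of 30 other LEA genes listed that are not dehydrins, 21 had a probe set named by the annotation. In flower buds 16 of these 21 had a higher mean in scion, none passed the test in either direction, and the median log2 difference was 0.20. In leaves 10 were higher, none passed, and the median was -0.01. AT1G72100 differed by 0.00 ± 0.26 and AT2G03740 by 1.13 ± 0.31 (SE, n = 3 per group) in flower buds. In all, 4 of the 21 were past 2-fold higher in scion flower buds, as were 2.83% of all probe sets. Besides AT2G03740 these were AT5G38760 (2.56 ± 0.70, limma adjusted p = 0.162), AT2G21820 (2.52 ± 0.79, 0.231) and AT2G03850 (1.70 ± 0.38, 0.0975), which were picked out after their values had been seen. The same 4 genes were past 2-fold without scion flower bud replicate 1, and none was called. Between organs, 4 of the 21 were called higher in flower buds in scion, and 3 higher and 1 lower in rootstock. GEA6, a LEA gene of the dry seed named only by tables of the study, differed by 0.24 ± 0.13. The 10 members had been put together when results of these arrays were known, so the gap between their median and that of the other LEA genes is a description.

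Dehydrins are the LEA proteins with conserved lysine-rich segments. Of 6 dehydrin genes named by the annotation, 2 had a higher mean in scion flower buds and none passed, with a median log2 difference of -0.09. The higher means were those of COR47, which differed by 0.67 ± 0.78, and LTI30, at 2.24 ± 1.12 (SE, n = 3 per group; limma adjusted p = 0.509). AT1G54410 differed by -0.03 ± 0.23. RAB18, a dehydrin gene used as a marker of ABA response and named only by tables of the study, rose by 4.32 ± 0.61 in scion flower buds (limma adjusted p = 0.0227). Its values were 2.68, -0.28 and 1.70 in scion and -2.93, -2.86 and -3.08 in rootstock flower buds, with replicate 1 again the highest. Without that array RAB18 gave 3.67 ± 0.54 and was not called (limma adjusted p = 0.0647).

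Genes of ABA signalling could be named only through tables of the study, which were chosen on these samples and give no independent evidence of direction. All 4 measured phosphatases of the PP2C family, the negative regulators of ABA signalling, had a higher mean in scion flower buds, and 2 passed. HAI2 rose by 3.52 ± 0.53 and ABI2 by 2.30 ± 0.26 (SE, n = 3 per group; limma adjusted p = 0.0305 and 0.00987), while PP2CA and ABI1 differed by 1.25 ± 0.28 and 1.59 ± 0.36. In leaves all 4 were higher by 0.17 to 0.86, and none passed. The kinase gene OST1 rose by 1.18 in scion flower buds (limma adjusted p = 0.0165). ABF3, listed with it, did not pass (1.39 ± 0.29, limma adjusted p = 0.0685). Nor did the ABA synthesis genes AAO3 (1.11 ± 0.50, limma adjusted p = 0.453) and ABA1 (0.60 ± 0.36, 0.622), which were also named only by those tables. Without scion flower bud replicate 1, ABI2 was still called (1.99 ± 0.21, limma adjusted p = 0.0239), while HAI2 (3.05 ± 0.53, 0.121) and OST1 (1.03 ± 0.15, 0.0543) were not.

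Among the listed genes of water deficit 2 were named by the annotation and 5 by tables of the study, and in flower buds all 7 had a higher mean in scion while none passed. The 5 named by those tables again give no independent evidence of direction. HIS1-3, a linker histone gene induced by drought, had a log2 difference of 4.76 ± 0.96 in flower buds (SE, n = 3 per group; limma adjusted p = 0.0667) and of 3.04 ± 0.96 in leaves (0.443). Its flower bud difference was 4.08 ± 1.02 without scion flower bud replicate 1 (limma adjusted p = 0.288). NAC019, a transcription factor gene of the drought response, had a log2 difference of 2.07 ± 0.54 in flower buds and of 0.02 ± 0.54 in leaves.

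Lists for tissues in which LEA genes are known to be active were counted beside the members. Of the 8 tapetum and pollen coat genes measured, 7 of them named only by tables of the study, all 8 had a higher mean in scion flower buds and 6 passed. Called higher were 0.237% of all probe sets. Of 3 senescence genes, NAC6, also known as ORE1, rose by 4.04 in scion flower buds (limma adjusted p = 0.0481), and SAG101 and ERD1 differed by -0.16 and 1.07. NAC6 and ERD1 were also named only by tables of the study. Genes named in this way had been chosen on these samples and give no independent evidence of direction. Without scion flower bud replicate 1 the 8 tapetum and pollen coat genes were all still higher, of which GRP14 was called (1.85 ± 0.24, limma adjusted p = 0.0341), and NAC6 gave 3.14 ± 0.55 (0.121). None of the 11 genes listed for seed maturation and storage had a probe set named here. Whether anther development or senescence had a part in the LEA differences was not tested.

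**Figure D5:**
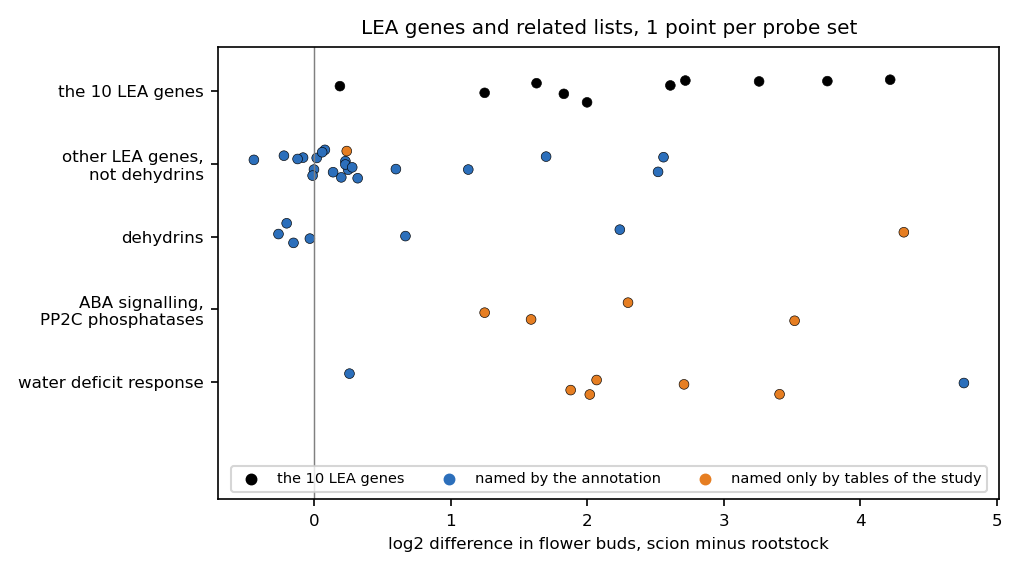
Log2 difference between scion and rootstock flower buds (x axis) of the 10 LEA genes and of 4 related gene lists (rows), 1 point per probe set, colored by the source of the name, with vertical scatter for legibility only. Most other LEA genes and dehydrins lie near 0, and all points named only by tables of the study, whose genes had been chosen on these samples, lie above 0.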

How the data were processed

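RNA of flower buds and leaves from scion and rootstock had been hybridized to Affymetrix ATH1 arrays, 3 per group. The authors made the deposited log2 values with RMA in GeneSpring. The values show that each probe set had also been centred on its median, a step the sources used here do not give. No raw intensity or background was used, and 3 arrays per group limit the precision.

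The 64 control probe sets were left out. Probe sets were named from the platform annotation, and otherwise from tables of the study, whose genes had been chosen on these samples. All 22746 probe sets entered 1 fit of 4 group means with limma 3.58.1 in R 4.3.3. Differences were called where the p-value after Benjamini-Hochberg adjustment over all probe sets did not exceed 0.05 and the change was 2-fold or more, and the difference between the organs at the adjusted p alone. The fit was tested on simulated data. Tables were made with pandas 2.3.3.

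The 10 genes and the gene lists were chosen with earlier results of these data known. Besides the 10 genes, each list contributed up to 4 genes past a test of scion against rootstock and up to 2 others of lowest locus number, and each member the named gene most correlated with it. AT5G38760, AT2G21820, AT2G03850, LTI30 and GEA6 stand outside this rule and were chosen after their values were seen. Of the members, 6 stood in tables of the study and 4 did not.

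After removal of group means, leaf arrays of equal replicate number were correlated at 0.342, 0.714 and 0.816, those of unequal number at 0.396 or less, and flower bud arrays of equal number at 0.0234, 0.0741 and 0.201. Rootstock leaf replicate 1 was closer to scion leaf replicate 2 (0.396) than to replicate 1. Every leaf pair of equal number exceeded 0.1, but so did a pair of unequal number, so the values do not settle the pairing. The labels do not say that equal numbers share a plant either. The main fit used no pairing, and the block within the organ was an alternative that assumed it.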

Additional observations from a re-analysis of the deposited data

How the results depend on the processing

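The 10 genes kept the direction of their flower bud difference under every alternative except the loss of scion flower bud replicate 1, which turned LEA4-1. Against 2 genes called in flower buds, the replicate block over all arrays and a robust prior each gave 1, the block within the organ 4, the analysis of variance 6 and array weights 9. In leaves, against 0, the block within the organ and array weights each gave 1 and the analysis of variance 2. Between scion organs, against 5, array weights gave 8 and a fit to both groups alone 1. The analysis of variance has 1 p-value for all 4 groups and is no test of a single pair of groups. The cause of the other changes was not tested.

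Over all probe sets the calls in flower buds went from 90 to 466 (block within the organ), 639 (array weights) and 566 (analysis of variance), and in leaves from 12 to 108, 226 and 297, with 0 in the fit to both groups alone. The difference of the scion effects went from 0 to 111 with the block and 467 with array weights. Without the fold threshold the organ comparison went from 5852 to 9669 in rootstock and from 4190 to 7439 in scion.

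With 1 array left out, the genes called ranged from 0 to 6 in flower buds, from 2 to 5 between scion organs and from 0 to 1 for the difference of the scion effects, and were 0 throughout in leaves. Over all probe sets the ranges were 0 to 286 in flower buds, 7 to 55 in leaves and 0 to 34 for the difference of the scion effects. Log2 differences that changed sign ran from -0.15 to 0.38 (LEA4-1) in flower buds. In leaves they ran from -0.57 to 1.01 (LEA4-1), -0.11 to 1.01 (LEA4-5), -1.24 to 0.33 (SAG21) and -0.86 to 0.55 (LEA14). Between organs they ran from -0.01 to 0.70 (AT3G02480, rootstock) and -0.20 to 0.90 (AT3G17520, scion), and for the difference of the scion effects from -0.82 to 0.77 (LEA4-1). The organ comparison could not be made with the block within the organ, and the analysis of variance and the fits to both groups alone give no difference of the scion effects. Centred values hide which probe sets were near background.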
